A study of Rattus norvegicus with 12 samples.

Results

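The genes described here encode the constitutive proteasome of rat liver and its regulators. They were chosen by name, as every gene whose probe set is annotated to a single symbol starting with Psma, Psmb, Psmc, Psmd, Psme or Psmf and a number, leaving out the immunoproteasome genes Psmb8, Psmb9 and Psmb10. This gave 39 of the 14217 genes measured, from 53 probe sets, each gene being represented by its probe set with the highest mean. Whole-tissue RNA was read on 12 Affymetrix rat arrays, on which brightness in log2 units stands for RNA level. Long Evans Cinnamon (LEC) rats lack a working copper exporter, Atp7b, so that copper builds up, hepatitis follows and tumors arise in old animals' livers. Long Evans Agouti (LEA) rats served as the strain without the disease. The 6 groups were LEC tumor at 67 weeks (4 arrays), LEC nontumor liver beside the tumors at 67 weeks (4 arrays), and 1 array each for LEC liver aged 4, 26 or 39 weeks and for LEA liver aged 67 weeks. All labels give male rats and no treatment. Each tumor or nontumor array held RNA mixed from 2 pairs drawn from 8 paired specimens, and the single arrays held pools whose number of rats is not stated. Tumor and adjacent nontumor specimens came in pairs, so the pools of both groups may hold RNA of the same rats; which arrays share rats is not stated, the fit treats arrays as independent, and p-values measure only the spread between these pooled samples.

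The proteasome is the barrel-shaped protease that degrades proteins marked with ubiquitin. Its core particle, the 20S proteasome, is built of rings of alpha subunits, which form the gate, and rings of beta subunits, some of which carry the cutting sites. The 19S regulatory particle binds ubiquitin chains through its lid and base, removes them, and unfolds the substrate with a ring of ATPases. Other activators, PA28 and PA200, and an inhibitor of the core, PI31, can bind the core in place of the 19S particle. Liver cells express the constitutive forms at all times, and oxidative or copper stress damages proteins that are cleared by this route.

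By role the 39 genes were 7 of the alpha ring, 6 of the beta ring, 6 ATPases and 3 other subunits of the 19S base, 8 subunits of the lid, 3 chaperones of base assembly, 3 activators and 1 inhibitor. The first 5 of these roles make up 30 of the 31 structural subunits listed, all under Psm names. Adrm1, the ubiquitin receptor of the 19S base, and Sem1 carry other names. They are not among the 31 and were listed with proteins that bind the proteasome. Of the 31, Psmb6, a catalytic beta subunit, is missing. Its probe set is shared with a related gene, so no value is given for it. The same holds for the activator Psme3. The remaining 2 genes, Psmc3ip and Psme3ip1, match by name only: their products are a meiotic recombination factor and a partner of the activator Psme3. No filter on low values was applied, so all 39 genes entered every comparison. Their lowest value on any array was 7.66, above the brightest probe set for absent bacterial RNA, which lay between 5.52 and 6.16 by array.

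The deposited values do not share one distribution across arrays. Array medians lay between 7.39 and 7.44 on the 8 arrays without tumor, while the 4 tumor arrays ranged from 7.48 to 7.51. The median of all genes shifted by 0.07 log2 units from nontumor to tumor as deposited, and by -0.04 once the arrays were quantile normalized again or their medians subtracted. Many proteasome changes are of the same order, so values on a second scale, quantile normalized again, are given where they change a call or a direction. Labels and arrays also differed on sex. Xist, an RNA made from the silent X chromosome of female cells, was low on the LEC 26 week (5.27) and 39 week (5.67) arrays, while the other 10 ranged from 11.36 to 13.12. The Y-linked gene Eif2s3y was high on the same pair (8.90 and 8.18), against a range of 3.65 to 3.81 elsewhere. For the 26 and 39 week arrays, age and this difference cannot be told apart.

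Nfe2l1 and Nfe2l2, the factors that raise proteasome genes under stress, bind antioxidant response elements with the core TGACNNNGC, and many housekeeping promoters hold the CCAAT box. RefSeq windows of 300 bases on GRCr8, from 250 bases before the gene start to 50 after it, were found for 35 of the 39 genes and not for Psma7, Psmd6, Psmd12 and Psmd14. The core was found on either strand in 7 of 35 windows, and in 12.1% of 33469 windows of all genes. CCAAT was found in 19 of 35 (54.3%) and in 37.5% of all windows. These matches describe letters only and were not tested. The windows shown are those of the beta ring genes Psmb5, a catalytic subunit, and Psmb2, of Psmd9 and Psmd1, the genes with the widest range over the arrays and 2 core matches each, and of the inhibitor Psmf1, which held no core match and fell in tumor. They were picked after the values were seen. Each is printed 5′ to 3′ along the gene, with matches to either element in capitals.
Psmb5, chr15:32047330-32047629, minus strand: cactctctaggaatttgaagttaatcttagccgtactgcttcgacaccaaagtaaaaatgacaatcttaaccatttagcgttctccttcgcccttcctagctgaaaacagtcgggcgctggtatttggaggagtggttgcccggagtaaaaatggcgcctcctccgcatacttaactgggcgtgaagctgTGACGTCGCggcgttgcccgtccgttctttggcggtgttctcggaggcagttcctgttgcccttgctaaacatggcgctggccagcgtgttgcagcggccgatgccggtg
Psmb2, chr5:144254808-144255107, plus strand: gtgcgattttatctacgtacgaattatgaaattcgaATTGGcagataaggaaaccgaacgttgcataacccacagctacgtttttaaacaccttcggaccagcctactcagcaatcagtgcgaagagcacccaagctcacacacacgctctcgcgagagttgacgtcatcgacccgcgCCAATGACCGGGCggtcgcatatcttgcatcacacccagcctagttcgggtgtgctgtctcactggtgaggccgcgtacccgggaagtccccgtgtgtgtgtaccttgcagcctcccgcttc
Psmd9, chr12:39018215-39018514, minus strand: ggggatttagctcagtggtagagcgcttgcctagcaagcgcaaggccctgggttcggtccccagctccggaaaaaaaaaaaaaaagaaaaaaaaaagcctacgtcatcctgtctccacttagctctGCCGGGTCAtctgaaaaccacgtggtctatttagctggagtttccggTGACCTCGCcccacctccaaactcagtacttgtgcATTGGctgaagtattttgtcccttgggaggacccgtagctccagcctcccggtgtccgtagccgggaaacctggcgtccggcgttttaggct
Psmd1, chr9:94157721-94158020, plus strand: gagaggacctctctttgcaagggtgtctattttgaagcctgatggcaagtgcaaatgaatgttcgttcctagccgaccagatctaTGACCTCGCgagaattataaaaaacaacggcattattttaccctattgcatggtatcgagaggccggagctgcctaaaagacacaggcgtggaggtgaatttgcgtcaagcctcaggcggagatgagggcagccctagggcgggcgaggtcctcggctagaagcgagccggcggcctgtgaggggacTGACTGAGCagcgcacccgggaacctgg
Psmf1, chr3:160720866-160721165, minus strand: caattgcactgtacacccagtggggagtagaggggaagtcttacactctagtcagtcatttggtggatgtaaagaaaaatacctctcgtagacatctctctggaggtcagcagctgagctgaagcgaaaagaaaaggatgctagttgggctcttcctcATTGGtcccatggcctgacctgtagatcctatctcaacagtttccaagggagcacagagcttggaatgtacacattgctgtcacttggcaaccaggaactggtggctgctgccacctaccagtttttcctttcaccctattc
In Psmb2 both elements overlap and are printed as a single run of capitals. The window of Psmb5 held 1 core match and no CCAAT box, and that of Psmf1 held 1 CCAAT box.

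Proteasome genes varied little between livers. The SD of a gene over the 12 arrays had a median of 0.16 log2 units for the 39 genes and 0.30 for all genes, and 37 of the 39 lay below the median of all genes. The median range from lowest to highest array was 0.56 against 0.94. Psmd9, a chaperone of base assembly, and Psmd1, the large scaffold of the base, were the 2 genes that ranged over more than 1 log2 unit, at 1.57 and 1.04, whereas 45.7% of all genes did. In tumor against nontumor liver 0 of the 39 differed by more than 1 log2 unit, where 21.0% of all genes did, and 3 differed by more than 0.5, where 46.5% did.

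**Figure D1:**
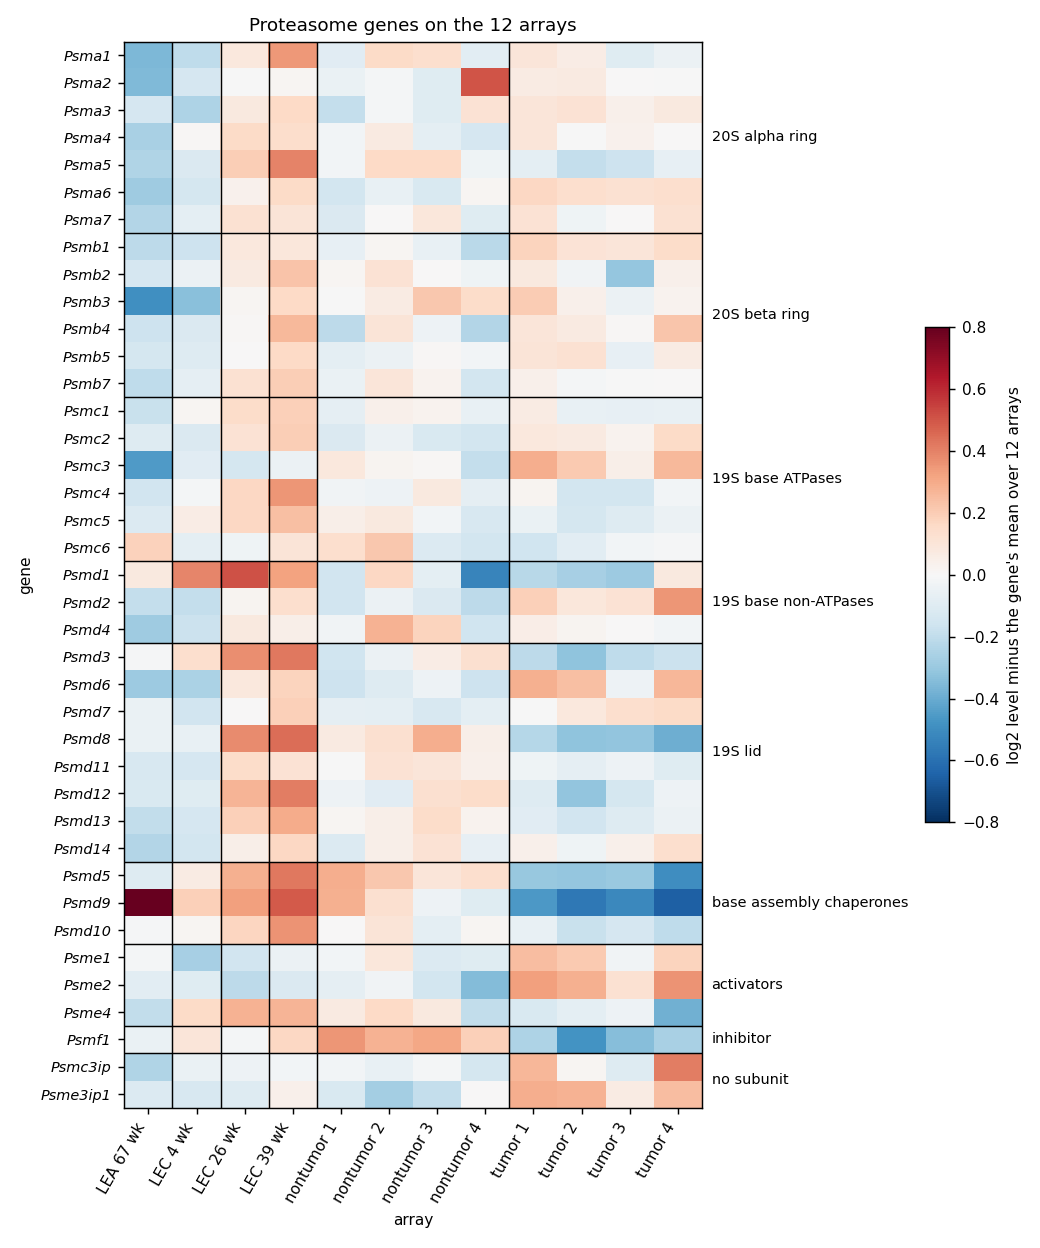
Heat map of the 39 genes (rows, by role) on the 12 arrays (columns, by group), as log2 level minus the gene's mean over the arrays, red above and blue below. On deposited values the LEC 39 week column is mostly red and the LEA column mostly blue, with Psmd9, Psmc6 and Psmd1 the clearest exceptions in LEA; Psmd9 was highest there.

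Between tumor and nontumor liver 6 of the 39 genes passed the test in the same direction as deposited, quantile normalized again and with array medians subtracted: the activator gene Psme2 rose, and the inhibitor Psmf1, the assembly chaperones Psmd9 and Psmd5 and the lid genes Psmd8 and Psmd3 fell. The share of all genes that passed on all 3 scales was not counted, so whether 6 of 39 is many or few is not known. Their shares on each scale are given below. Which structural subunits passed the test depended on how arrays were scaled. Of the 30, 9 were called as deposited and 11 quantile normalized again, with Psmd3 and Psmd8 the 2 called on both; 16 were lower and 8 higher on both scales, and 6 turned sign (Psma3, Psma4, Psma7, Psmb7, Psmd7 and Psmd14). On deposited values 9 of the 39 genes rose in tumor (23.1%, against 38.8% of all genes) and 5 fell (12.8%, against 29.2%), by limma's moderated test with Benjamini-Hochberg adjusted p under 0.05. At an unadjusted p under 0.05, 9 were higher and 7 lower, where 71.3% of all genes passed. After quantile normalization again, 1 rose, Psme2 (background 30.8%), and 16 fell (background 33.9%), and with array medians subtracted 3 rose (background 34.1%) and 12 fell (background 36.5%). With the title number as a block, 8 were called, 4 of them higher. The 14 calls became 9 without tumor array 1, without tumor array 2 or without tumor array 4. For the block and for these fits the share of all genes called was not counted. Tumor arrays lay all above nontumor arrays for 7 genes (36.1% of all genes did) and all below for 8 (27.7%). Psmf1, Psmd9, Psmd5 and Psmd8 fell and Psme2 rose under each of the 17 alternatives tried, scalings included. The median difference of the 39 genes was -0.02 log2 units as deposited and -0.16 quantile normalized again, beside the medians of all genes given above. On whole tissue, fewer cells of a type and less RNA per cell cannot be told apart.

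Markers of several cell types differed between the same groups. The summed level of 5 of 6 listed hepatocyte markers, led by albumin, lay between 15.998 and 16.11 on nontumor arrays and between 13.23 and 15.86 on tumor arrays, lowest on tumor array 4. Sums for bile duct markers (4 of 5 measured) lay between 10.22 and 11.98 on nontumor arrays and between 14.46 and 14.78 on tumor arrays. Matrix and stellate markers (6 of 6) lay between 11.77 and 12.26 and between 14.19 and 14.88, and T, B and NK cell markers (6 of 7) between 10.23 and 10.46 and between 11.14 and 11.50. The members of this last list split. Ptprc (1.46), Cd3e (1.45) and Cd3d (1.64) rose, Nkg7 (-0.23) fell, and Cd2 (-0.24) and Cd79b (-0.23) were lower without a call. Markers of dividing cells (5 of 5) lay between 9.62 and 10.69 on nontumor arrays, highest on arrays 3 and 4, and between 10.94 and 11.29 on tumor arrays. Macrophage sums (5 of 6) lay between 12.73 and 13.44 on nontumor arrays and between 12.53 and 12.79 on tumor arrays, and endothelial sums (4 of 5) between 11.75 and 12.21 and between 11.68 and 12.13. These sums hide opposite changes. Of the macrophage genes Clec4f (-3.85) and Cd163 (-1.15) fell, Csf1r (0.68) and Adgre1 (1.20) rose, and Cd68 (0.16) was not called. Of the endothelial genes Stab2 (-3.12) and Kdr (-0.34) fell, and Vwf (1.53) and Pecam1 (0.57, call lost quantile normalized again) rose. On this log2 scale no marker is at 0. The part of these cells in the proteasome values was not tested.

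**Figure D2:**
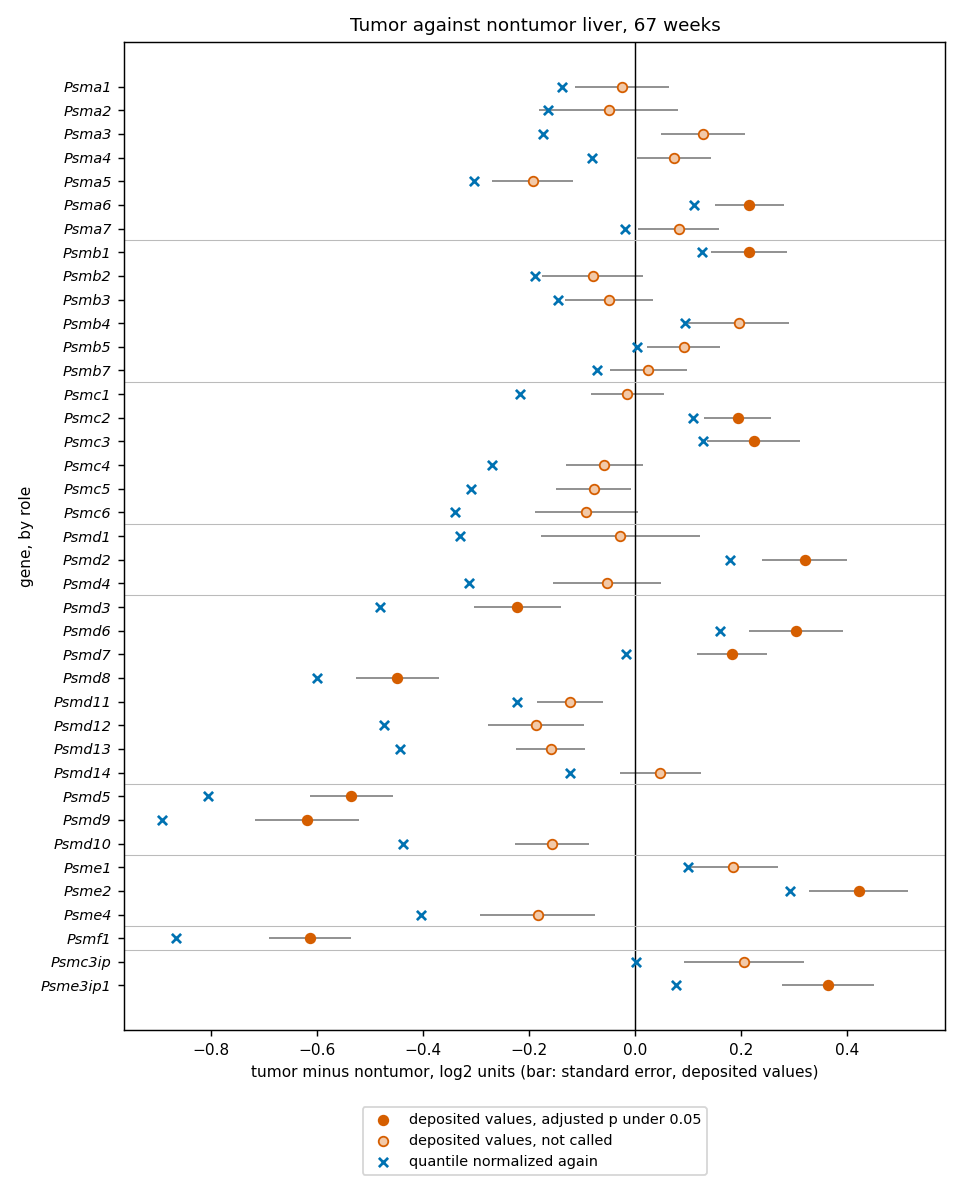
Tumor minus nontumor difference in log2 units (horizontal axis) for each of the 39 genes (vertical axis, by role), 4 arrays a group. Filled circles passed the test on deposited values, pale circles did not, bars are standard errors, and crosses are the same differences after quantile normalization again. Each of the 39 crosses lies left of its circle; Psmf1, Psmd9, Psmd5 and Psmd8 lie left of 0 and Psme2 right of 0 on both scales, while Psmd7 changes sign.

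In the 20S core, whose alpha ring gates and whose beta ring cuts, 1 of 7 alpha and 1 of 6 beta genes rose on deposited values; quantile normalized again, those calls were lost and 1 alpha gene, Psma5, fell. Alpha ring differences ran from -0.19 to 0.22 with a median of 0.07, and from -0.30 to 0.11 with a median of -0.14 after normalization. Beta ring differences ran from -0.08 to 0.21 with a median of 0.06, or -0.19 to 0.13 with a median of -0.03. Psma6, an alpha ring subunit, rose by 0.22 ± 0.07 (SE, adjusted p = 0.0179) and Psmb1, a non-catalytic beta subunit, by 0.21 ± 0.07 (adjusted p = 0.0267). Their calls held in 12 and 9 of the 17 alternatives and were lost on both other scales. Psma5 had every tumor array below every nontumor array but was not called as deposited (-0.19 ± 0.08, adjusted p = 0.0529).

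Psmb5 carries the chymotrypsin-like site of the core. It measured 12.29, 12.32, 12.38 and 12.35 on the nontumor arrays, 12.47, 12.49, 12.30 and 12.43 on the tumor arrays, 12.26, 12.37 and 12.53 in LEC liver at 4, 26 and 39 weeks and 12.23 in LEA liver. The groups overlapped, the difference was 0.09 ± 0.07 (adjusted p = 0.27), and the whole span of 12 arrays was 0.30 log2 units. Psmb7 carries the trypsin-like site and read 11.85, 12.002, 11.94 and 11.76 in nontumor, 11.94, 11.89, 11.90 and 11.91 in tumor, 11.83, 12.03 and 12.10 at the younger ages and 11.70 in LEA. Its groups overlapped too, with a difference of 0.02 ± 0.07 (adjusted p = 0.78). Psma1, of the alpha ring, read 11.33, 11.58, 11.56 and 11.34 in nontumor, 11.52, 11.49, 11.32 and 11.38 in tumor, 11.22, 11.50 and 11.77 at 4, 26 and 39 weeks and 11.07 in LEA, with a difference of -0.02 ± 0.09 (adjusted p = 0.819). For each of these 3 genes the highest array was LEC 39 weeks and the lowest LEA.

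In the 19S base, 2 of the 6 ATPase genes (Psmc2 and Psmc3) and 1 of the 3 other subunits (Psmd2) rose on deposited values, whereas 4 other ATPase genes and the 2 other subunits fell quantile normalized again. Psmd2, a scaffold that docks ubiquitin shuttles, read 10.88, 10.99, 10.92 and 10.83 in nontumor and 11.23, 11.13, 11.16 and 11.39 in tumor, with 10.85, 11.06 and 11.18 at the younger ages and 10.85 in LEA. Tumor arrays lay above all nontumor arrays; the rise of 0.32 ± 0.08 (adjusted p = 0.00758), 1.25-fold, held in 16 of 17 alternatives, failing after quantile normalization again (0.18). Psmc3, an ATPase, read 11.57, 11.51, 11.49 and 11.29 in nontumor, 11.78, 11.70, 11.54 and 11.75 in tumor, 11.40, 11.35 and 11.44 at the younger ages and 11.03 in LEA. Its groups overlapped, since tumor array 3 lay below nontumor array 1, and its call (0.22 ± 0.09, adjusted p = 0.049) held in 5 of 17 alternatives. Psmc2 rose by 0.19 ± 0.06 (adjusted p = 0.0252), a call kept in 8. After quantile normalization again Psmc3 and Psmc2 lay at 0.13 and 0.11, not called.

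Other genes of the base were not called on deposited values. The ATPase Psmc4 read 10.82, 10.81, 10.93 and 10.78 in nontumor, 10.87, 10.71, 10.71 and 10.83 in tumor, 10.84, 11.02 and 11.21 at the younger ages and 10.70 in LEA (difference -0.06 ± 0.07, adjusted p = 0.503). Psmd4, a ubiquitin receptor of the base, read 10.04, 10.36, 10.25 and 9.92 in nontumor, 10.13, 10.10, 10.08 and 10.05 in tumor, 9.90, 10.15 and 10.12 at the younger ages and 9.79 in LEA (difference -0.05 ± 0.10, adjusted p = 0.662). Both sets of groups overlapped, and both genes were called lower after quantile normalization again (-0.27 and -0.31). Psmd1, the other scaffold, read 9.20, 9.52, 9.28 and 8.83 in nontumor, 9.13, 9.09, 9.06 and 9.43 in tumor, 9.75, 9.86 and 9.68 at the younger ages and 9.44 in LEA. All 3 younger arrays lay above all 8 LEC arrays at 67 weeks, and tumor and nontumor overlapped (difference -0.03 ± 0.15, adjusted p = 0.882).

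Of the 8 lid genes, 2 rose and 2 fell on deposited values and 4 fell quantile normalized again. Psmd8, a small lid subunit added late in assembly, read 11.39, 11.45, 11.61 and 11.37 in nontumor and 11.09, 11.001, 11.01 and 10.93 in tumor, 11.26, 11.70 and 11.77 at the younger ages and 11.27 in LEA. Each tumor array lay below each other array, and the level in tumor was 73.3% of that in nontumor liver (difference -0.45 ± 0.08, adjusted p = 0.00114). Psmd3, another lid subunit, read 10.16, 10.27, 10.37 and 10.44 in nontumor, 10.11, 9.99, 10.11 and 10.15 in tumor, 10.45, 10.69 and 10.74 at the younger ages and 10.31 in LEA. The groups did not overlap but were close. Psmd3 fell by 0.22 ± 0.08 (adjusted p = 0.0395) and was called on all 3 scales. That call was kept in only 1 of the 8 fits that left out an array and lost in 7, and it held in 7 of 17 alternatives.

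Psmd6, also of the lid, rose with 1 array apart. It read 10.83, 10.89, 10.95 and 10.83 in nontumor, 11.27, 11.23, 10.95 and 11.26 in tumor, 10.74, 11.08 and 11.17 at the younger ages and 10.70 in LEA. Tumor array 3 lay just under nontumor array 3, and the rise of 0.30 ± 0.09 (adjusted p = 0.0151) was lost on both other scales. Psmd7, the partner of the deubiquitinase, rose by 0.18 ± 0.07 (adjusted p = 0.0354) as deposited, a call held in 3 of 17 alternatives, and moved to -0.02 quantile normalized again. Psmd14, the deubiquitinase that clips the chains off substrates, read 10.86, 11.02, 11.09 and 10.91 in nontumor, 11.01, 10.94, 11.01 and 11.10 in tumor, 10.82, 11.02 and 11.14 at the younger ages and 10.74 in LEA. Its groups overlapped (difference 0.05 ± 0.08, adjusted p = 0.601; -0.12 quantile normalized again). Psmd11 and Psmd13 had all tumor arrays below all nontumor arrays without a call as deposited (-0.12 and -0.16, adjusted p = 0.113 and 0.0566), and Psmd12 differed by -0.19 (adjusted p = 0.097). Psmd12 and Psmd13 were called lower after quantile normalization again (-0.47 and -0.44), and all 3 with array medians subtracted.

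The chaperones that assemble the 19S base bind its ATPases and leave before the particle is finished. Of the 3, Psmd9 and Psmd5 fell on both scales, and Psmd10 was called lower only after rescaling. Psmd9 read 9.38, 9.22, 9.05 and 8.996 in nontumor, 8.63, 8.52, 8.58 and 8.44 in tumor, 9.29, 9.43 and 9.59 at the younger ages and 10.02 in LEA. Every tumor array was below every other array and LEA was the highest of the 12; tumor held 65.1% of the nontumor level (difference -0.62 ± 0.10, adjusted p = 0.00068). Psmd5 read 10.28, 10.20, 10.08 and 10.11 in nontumor, 9.68, 9.67, 9.68 and 9.49 in tumor, 10.05, 10.27 and 10.41 at the younger ages and 9.88 in LEA. Tumor arrays again lay below the other 8, at 69.0% of nontumor (difference -0.53 ± 0.08, adjusted p = 0.000453). Psmd10, also named gankyrin and known as an oncoprotein raised in human liver cancer, read 9.77, 9.86, 9.68 and 9.78 in nontumor, 9.70, 9.58, 9.62 and 9.56 in tumor, 9.77, 9.93 and 10.12 at the younger ages and 9.75 in LEA. Tumor array 1 lay above nontumor array 3 (9.70 against 9.68); the difference was -0.16 ± 0.07 (adjusted p = 0.0778), and -0.44, called, quantile normalized again.

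Psmf1 encodes PI31, which inhibits the core in the test tube and is also linked to proteasome transport in cells. It read 10.72, 10.65, 10.68 and 10.56 in nontumor, 10.13, 9.90, 10.03 and 10.11 in tumor, 10.47, 10.35 and 10.54 at the younger ages and 10.32 in LEA. The nontumor arrays were the highest of all 12 and the tumor arrays the lowest, with no overlap. Tumor liver held 65.4% of the nontumor level (difference -0.61 ± 0.08, adjusted p = 0.000193; -0.87 quantile normalized again).

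Among activators, the subunits of PA28, Psme1 and Psme2, open the gate of the core and are induced by interferon; Psme2 rose in tumor. Psme2 read 11.04, 11.09, 10.96 and 10.76 in nontumor, 11.44, 11.40, 11.23 and 11.47 in tumor, 11.02, 10.90 and 10.997 at the younger ages and 11.03 in LEA. Every tumor array exceeded every other array, 1.34-fold over nontumor (difference 0.42 ± 0.09, adjusted p = 0.004; 0.29 quantile normalized again). Psme1 read 12.46, 12.57, 12.37 and 12.38 in nontumor, 12.72, 12.68, 12.45 and 12.65 in tumor, 12.22, 12.33 and 12.43 at the younger ages and 12.46 in LEA. Tumor array 3 lay within the nontumor range and Psme1 was not called (0.18 ± 0.09, adjusted p = 0.0861). Psme4, which encodes PA200, read 10.82, 10.92, 10.83 and 10.56 in nontumor, 10.64, 10.68, 10.71 and 10.37 in tumor, 10.91, 11.03 and 11.03 at the younger ages and 10.56 in LEA, and was not called (-0.18 ± 0.11, adjusted p = 0.162) except lower on both other scales.

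**Figure D3:**
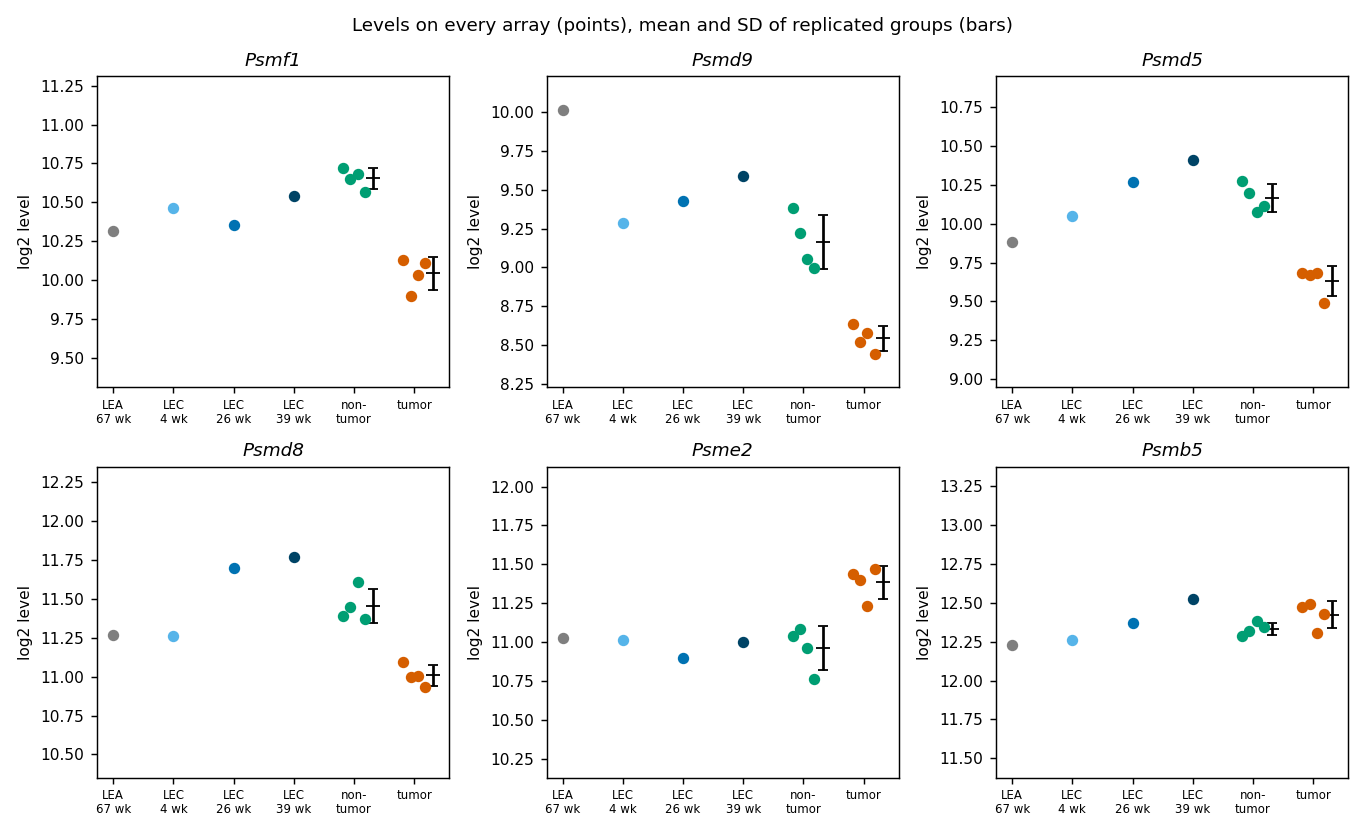
Log2 level (vertical axis, 2 units tall in each panel) of 6 genes in the 6 groups (horizontal axis), 1 point per array, with black bars for the mean and SD of the 4 nontumor and 4 tumor arrays. Psmf1, Psmd9, Psmd5 and Psmd8 are lower and Psme2 higher on every tumor array than on every nontumor array, and Psmb5 overlaps; Psmd9 is highest in LEA.

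Of the genes that match by name alone, Psme3ip1 read 9.45, 9.30, 9.38 and 9.58 in nontumor, 9.86, 9.85, 9.64 and 9.82 in tumor, 9.45, 9.47 and 9.62 at the younger ages and 9.46 in LEA. It rose by 0.36 ± 0.09 (adjusted p = 0.00569), with no overlap between groups, and was not called after quantile normalization again (0.08). Psmc3ip differed by 0.21 ± 0.11 (adjusted p = 0.14).

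Further probe sets of the same gene did not always go the same way. The second probe set of Psmd9 also fell (-0.25, adjusted p = 0.0309). For Psmd7, whose brightest probe set rose, the other fell (-0.37, adjusted p = 0.0029). Among genes not called, a further probe set was called lower for Psmc6 (-0.39, adjusted p = 0.0221), Psmd14 (-0.35, adjusted p = 0.0041), Psme4 (-0.56, adjusted p = 0.00976), Psme1 (-0.46, adjusted p = 0.0392) and Psmd11 (-1.10, adjusted p = 0.000847). Those of Psme1 and Psmd11 were dim, with means of 7.81 and 6.32. Psmb5 and Psmc4 had no further probe set called on deposited values. Quantile normalized again, both further probe sets of Psmb5 were called lower (-0.33 and -0.29), with means of 8.34 and 7.58. That of Psmc4 was not (-0.04). On this scale another probe set each of Psmc6 (-0.53), Psmd14 (-0.40) and Psme4 (-0.46) was also called lower, and another of Psmd11 (-0.16) was not.

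Across the single arrays, proteasome genes as deposited lay mostly lowest in LEA and highest in LEC liver at 39 weeks. These are values of lone pools, with no test. At 39 weeks 35 of the 39 genes lay above LEA, with a median difference of 0.37 log2 units where all genes had 0.02, and 36 did with a median of 0.35 after quantile normalization again. Of all genes 53.1% lay above LEA as deposited and 50.1% on the second scale. At 26 weeks 35 lay above LEA (median 0.31), or 33 on the second scale (median 0.31), where 49.8% and 49.6% of all genes did. At 4 weeks 28 lay above LEA (median 0.09), or 34 on the second scale (median 0.17), where 44.5% and 49.6% of all genes did. The 4 week and LEA arrays are the pair not touched by the Xist difference. In each comparison with LEA, strain and age differ together and cannot be told apart. Psmd9 was the lowest of the 39 in all 3 comparisons, at -0.43, -0.59 and -0.73. Within LEC, 36 genes were higher at 26 than at 4 weeks (median 0.18), 37 higher at 39 than at 4 weeks (median 0.28) and 33 higher at 39 than at 26 weeks (median 0.10), and 32, 34 and 31 were so after quantile normalization again. Of all genes 55.2%, 59.9% and 54.7% were higher in these comparisons as deposited, and 49.7%, 51.6% and 51.8% quantile normalized again. Psma1 had the largest step to 39 weeks, 0.70 above LEA and 0.55 above 4 weeks.

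The 30 structural subunits stood above their own mean over the 12 arrays for 29 genes on the 39 week array, 27 on the 26 week array, 5 on the 4 week array and 2 on the LEA array. Of the 39 genes, 19 had their highest array at 39 weeks, where 7.05% of all genes did, and 17 their lowest in LEA, where 8.35% did. Quantile normalized again, 16 were lowest in LEA (9.24% of all genes) and 11 highest at 39 weeks (5.26%), while nontumor array 3 was then the highest for 12 (5.4%). Nontumor arrays 3 and 4 then had 30 and 26 of the 30 subunits above their mean, and the median subunit stood at 0.17 on nontumor array 3 and 0.16 at 39 weeks. These counts were chosen after the values were seen. The share of all genes above their own mean was not counted.

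**Figure D4:**
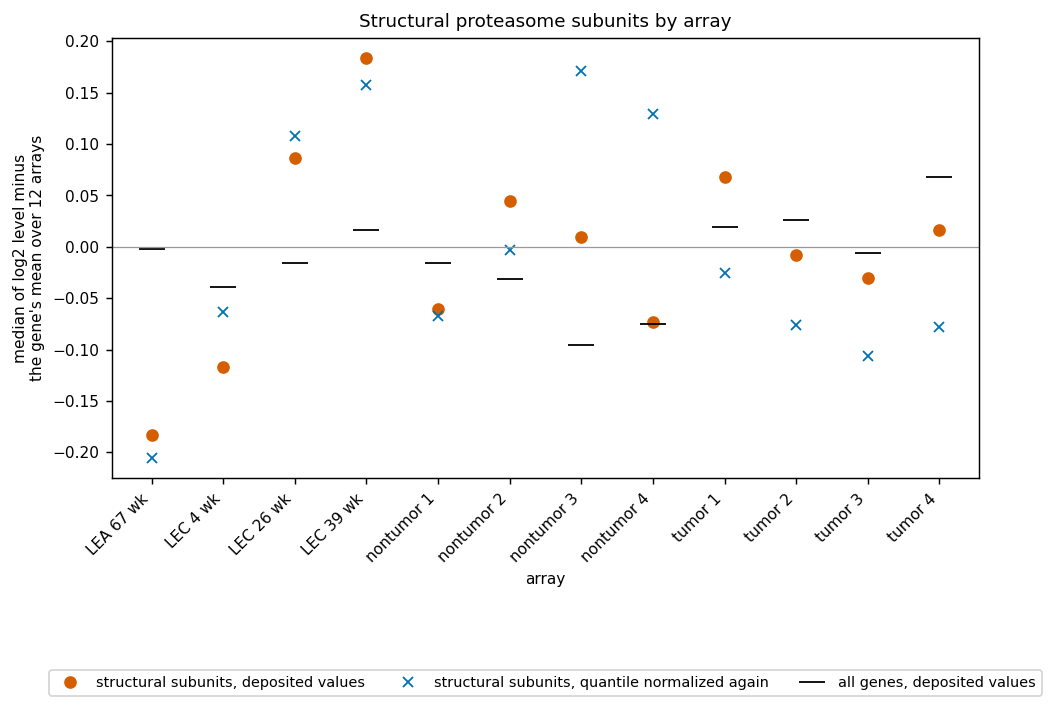
Median over the 30 structural subunits of log2 level minus the gene's own mean (vertical axis) on each array (horizontal axis), as deposited (circles) and quantile normalized again (crosses), beside the median of all genes (bars). The circles run from -0.18 in LEA to 0.18 in LEC at 39 weeks; on the nontumor arrays 3 and 4 the crosses lie at 0.17 and 0.13, above the circles.

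LEC nontumor liver at 67 weeks was compared with LEA liver of the same age. By limma, 0 of the 39 genes passed, where 0.563% of all genes did, and 7 were higher and 1 lower at an unadjusted p under 0.05 (20.5%, where 12.4% of all genes passed). The median difference was 0.16, beside -0.03 for all genes, and 0.26 quantile normalized again. The largest positive difference was that of Psmb3, a beta subunit, 0.59 ± 0.13 (adjusted p = 0.108), and the only lower gene at that level was Psmd9, -0.85 ± 0.15 (adjusted p = 0.0605). Psmd9 passed after quantile normalization again (-0.76), with array weights, relative to the structural subunits (an alternative added after the values were seen) and without nontumor array 1. A lone LEA pool stands behind this comparison, which assumes that it varies like the replicated groups. Strain and copper disease differ together in it and cannot be told apart.

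Tumor against LEA liver gave 6 genes that rose (15.4%, against 27.1% of all genes) and 1 that fell (2.56%, against 19.2%) by the same test. Those that rose were Psmc3, Psmb3, Psmd6, Psma6, Psmd2 and Psmb1, of the core and the 19S particle. Psmc3 was 0.66 ± 0.14 higher (adjusted p = 0.00613) and Psmd6 0.48 ± 0.14 (adjusted p = 0.0256). Psmb3 read 11.76, 11.83, 11.98 and 11.91 in nontumor, 11.97, 11.81, 11.71 and 11.79 in tumor, 11.43, 11.78 and 11.92 at the younger ages and 11.28 in LEA, and was 0.54 ± 0.13 higher in tumor than in LEA (adjusted p = 0.0109). Psmd9 lay at 36.0% of the LEA level (-1.47 ± 0.15, adjusted p = 0.000196), a call kept under each alternative tried. Nontumor liver lay below LEA for Psmd9 as well (-0.85, not called as deposited). Quantile normalized again 2 rose (background 22.7%) and 5 fell (background 21.5%), and without tumor array 1 or tumor array 2 the calls numbered 4. This comparison shares its tumor arrays with the one against nontumor, and its lone LEA array with that of nontumor against LEA. Strain, copper disease and tumor differ together here and cannot be told apart.

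Against the younger LEC pools, nontumor liver at 67 weeks gave 0 called genes by limma in each case: at 4 weeks 0.464% of all genes passed, at 26 weeks 0.239% and at 39 weeks 0.155%. At an unadjusted p under 0.05, 1 gene was higher and 1 lower than at 4 weeks, 1 higher and 2 lower than at 26 weeks, and 0 higher and 11 lower than at 39 weeks. Those are 5.13%, 7.69% and 28.2% of the 39 genes, where 13.5%, 11.8% and 10.4% of all genes passed. Median differences were 0.07, -0.13 and -0.21, where those of all genes were -8e-04, -0.04 and -0.07. After quantile normalization again they were 0.09, -0.04 and -0.12.

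Genes that work with the proteasome were counted in tumor against nontumor liver from lists of their roles, to be read against the 38.8% of all genes that rose and the 29.2% that fell (30.8% and 33.9% quantile normalized again). Each gene of these lists said to have risen or fallen kept its direction on the second scale, and its call where no loss is stated. In the immunoproteasome, whose subunits replace the catalytic ones under interferon, Psmb9 rose by 0.51 ± 0.11 (adjusted p = 0.00361) and Psmb10 by 0.33 ± 0.10 (adjusted p = 0.0193, lost quantile normalized again), and Psmb8 differed by -0.05 ± 0.17 (adjusted p = 0.802). Of 5 assembly factors of the core 1 was called as deposited, Pomp, a maturation factor, which fell (-0.21 ± 0.08, adjusted p = 0.0466). Quantile normalized again 3 fell: Pomp, and also Psmg1 (-0.42) and Psmg3 (-0.37), which were not called as deposited. Of 13 measured proteins that bind the proteasome or ferry substrates, 4 rose and 3 fell, with a median of 0.17, and 2 rose and 4 fell quantile normalized again. Adrm1, the ubiquitin receptor of the 19S base, fell by 0.65 ± 0.08 (adjusted p = 0.00021), as did the shuttle Ubqln1 (-0.29 ± 0.07, adjusted p = 0.00757). Its relatives Ubqln2 and Ubqln4, named after their values were seen, rose by 0.41 and 0.47 (adjusted p = 0.00229 and 0.00325), calls lost quantile normalized again. Uchl5, the deubiquitinase that Adrm1 holds, rose by 0.93 ± 0.27 (adjusted p = 0.0146) and Zfand5, which stimulates the proteasome, by 0.85 ± 0.11 (adjusted p = 0.000238). For Uchl5, nontumor arrays 3 and 4 (8.49 and 8.45) lay well below nontumor arrays 1 and 2 (9.65 and 9.39). Its tumor arrays read 9.79 to 10.13, LEA 9.94, and LEC liver at 4, 26 and 39 weeks 10.01, 9.80 and 9.23. Both measured enzymes that charge ubiquitin rose, Uba6 by 0.81 ± 0.18 (adjusted p = 0.00387) and Uba1 by 0.53 ± 0.08 (adjusted p = 0.000414).

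Of 10 regulators of proteasome genes 4 rose and 3 fell, or 2 and 4 quantile normalized again, shares near those of all genes. Nfe2l1, the factor that restores proteasome genes when the proteasome is blocked, rose by 0.88 ± 0.14 (adjusted p = 0.000818), and its partner Maff by 0.96 ± 0.33 (adjusted p = 0.0293). Maff was dim: nontumor arrays 1 and 2 (5.88 and 5.88) lay below those arrays' brightest bacterial probe set, and nontumor array 4 (7.51) lay within the tumor range. Ddi2, the protease that releases Nfe2l1, fell by 0.48 ± 0.14 (adjusted p = 0.0128), and the repressor Bach1 fell by 0.33 ± 0.11 (adjusted p = 0.0253). Nfe2l2, the oxidative stress factor also called NRF2, was not called (0.44 ± 0.18, adjusted p = 0.055). Of its 14 measured targets 3 rose and 10 fell, with a median of -1.01: the heme oxygenase Hmox1 fell by 1.78 ± 0.27 (adjusted p = 0.000574) and the glutathione enzyme Gclc by 1.76 ± 0.21 (adjusted p = 0.000137), while Tkt, of the pentose phosphate pathway, rose by 0.86 ± 0.08 (adjusted p = 2.8e-05) and the transporter Abcc4 by 0.84 ± 0.23 (adjusted p = 0.0113). The chaperonin CCT, another constitutive complex, had 7 of 8 subunits rise, with a median of 0.53, and 6 rise on the second scale. Cct7 rose by 0.73 ± 0.07 (adjusted p = 4.68e-05) and Cct5 by 0.72 ± 0.11 (adjusted p = 0.000673).

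**Figure D5:**
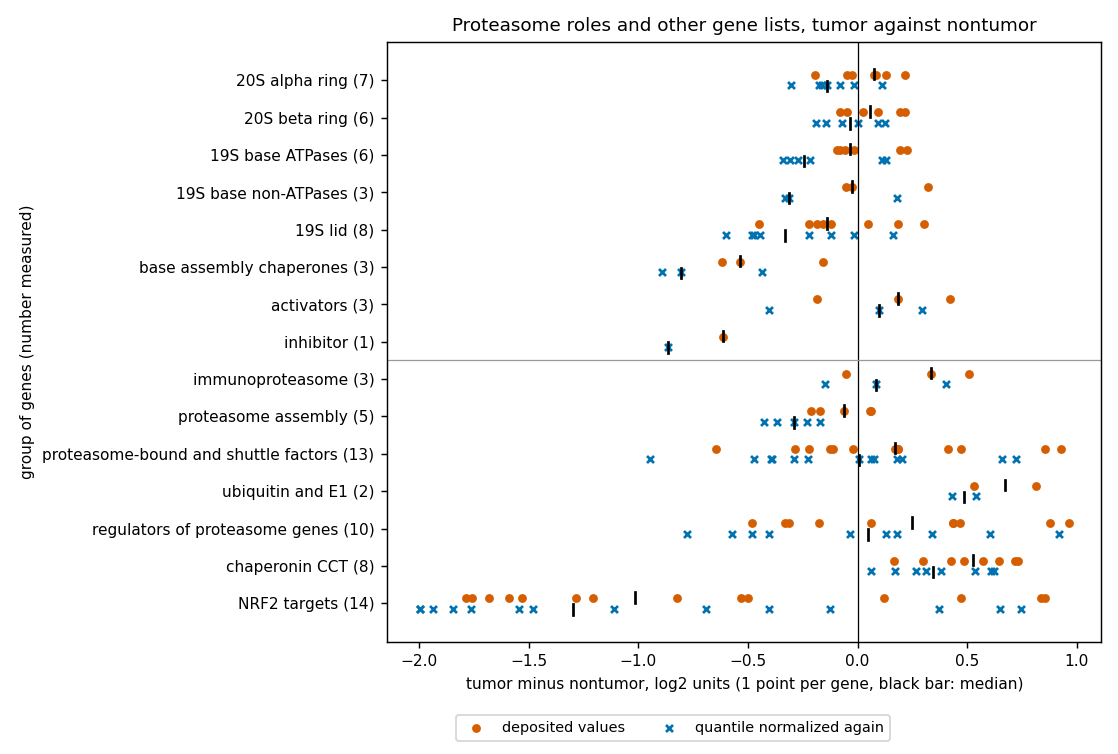
Tumor minus nontumor difference in log2 units (horizontal axis) for each gene of the proteasome roles (above the line) and of the other lists (below), as deposited (circles) and quantile normalized again (crosses), with black bars for medians; the number of measured genes is in parentheses. Medians of the 20S rings change sign between the scales, from 0.07 to -0.14 for alpha and from 0.06 to -0.03 for beta, and those of the base assembly chaperones (-0.53 and -0.80) and the inhibitor (-0.61 and -0.87) do not.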

How the data were processed

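Liver RNA of 12 pools was measured on Affymetrix arrays. The deposited values are log2 expression values from RMA run in R 2.6.1 by the authors, as the submitters' processing notes give it; whether all arrays were normalized together is not given in the sources used here. Groups were read from the sample titles. Of 31099 probe sets, 57 controls were left out and 31042 tested; 20826 had a single gene, 436 several and 9780 none listed in the annotation table used here, and 20758 matched by Entrez identifier. Each gene's values are those of the probe set whose 12-array mean was highest.

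In R 4.3.3, limma 3.58.1 (lmFit, then eBayes) fitted a mean per group over all 12 arrays, with 6 residual and 2.84 prior degrees of freedom; its two-sided p-values carry the Benjamini-Hochberg adjustment across 31042 probe sets. A lone array is assumed to have the spread of the replicated groups. Differences are log2 units ± standard error. The number of arrays limits precision. The fit was tested on simulated data. Differences between lone arrays were not tested.

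Every gene is accounted for by role. Per-array values are given for the 5 largest rises and falls called in tumor against nontumor, the 3 largest in other comparisons and 13 fixed genes (Psmb6 had no value). Of other lists, up to 4 called genes and some fixed ones are named. The genes and lists were chosen with earlier results of these data known. As alternatives, the arrays were quantile normalized again or centred on their medians, dim probe sets were dropped, a gene's probe sets were averaged, the prior was trended and robust, arrays were weighted, only the compared groups were fitted, the title number served as a block, or 1 replicate was left out; levels relative to the structural subunits were added after seeing the data. Sequences came from RefSeq on GRCr8. Figures used matplotlib 3.10.9 in Python 3.11.15.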

Additional observations from a re-analysis of the deposited data

Results flagged for a closer look

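In 5 of the 78 sets of 4 replicate arrays tested (39 genes in 2 groups), 1 array stood far from the other 3, by Dixon's 95% criterion, and chance flags about 1 in 20 such sets. Psma2, of the alpha ring, was high on nontumor array 4 at 11.81, where the next array read 11.29. The ATPase Psmc1 was high on tumor array 1 at 10.92, with the next at 10.79. The lid gene Psmd6 was low on tumor array 3 at 10.95, with the next at 11.23. Psmd7, also of the lid, was low on nontumor array 3 at 10.67, with the next at 10.72. The base assembly chaperone Psmd5 was low on tumor array 4 at 9.49, with the next at 9.67, and its fall in tumor was called without each array in turn.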

How the results depend on the processing

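The calls of Psmf1, Psmd9, Psmd5, Psmd8 and Psme2 in tumor against nontumor kept their direction under all 17 alternatives. Of the 14 tumor calls, 9 higher and 5 lower, the split was 1 and 16 after quantile normalization again, 3 and 12 with array medians subtracted, and 4 and 8 relative to the structural subunits; 9 were lower by the mean over probe sets. With the replicate number as a block there were 8, of which 4 higher. Specimens were paired, but no label ties a number to a pair, and the correlations of same-numbered deviations (0.05, 0.14, -0.08 and 0.14) do not settle it: 3 of 4 tumor arrays, not array 3, and 2 of 4 nontumor arrays correlated best with their own number. Leaving out 1 array gave 9 to 14 calls, 5 to 10 higher and 4 to 6 lower. Against LEA, the 7 tumor calls, 6 higher and 1 lower, became 2 and 5 after quantile normalization again, 3 and 3 with array medians subtracted, 1 and 8 relative to the subunits, and 12, 11 of them higher, with array weights; leaving out 1 array gave 4 to 9, and 3 to 8 higher. For nontumor against LEA, 1 gene, lower, was called after quantile normalization again, with array weights and relative to the subunits, and 0 to 1 without 1 array. The comparisons with LEC at 4, 26 and 39 weeks kept 0 calls under each alternative run. Where no share of all genes is given for an alternative, it was not counted. For genes named, signs turned after quantile normalization again for Psmd7 (-0.017), Psmb7 (-0.071) and Psmd14 (-0.12), with medians subtracted for Psmb5 (-0.011), Psmb7 (-0.078) and Psmd14 (-0.055), by the mean over probe sets for Psmd7 (-0.091), Psmb5 (-0.042), Psmc4 (0.0070), Psmd14 (-0.15) and Psme1 (-0.14), with array weights for Psma1 (0.031), and relative to the subunits for Psmb7 (-0.031) and Psmd14 (-0.0083). Leaving out 1 array moved Psma1 between -0.065 and 0.018, Psmb7 between -0.018 and 0.063, Psmd1 between -0.15 and 0.078 and Psmd4 between -0.13 and 0.018. The cause was not tested. All 39 genes lay above the bacterial control signal on every array.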
